A study of Homo sapiens with 8 samples.

Results

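AT-rich origins are replication origins whose DNA holds more A and T than most origins do. An origin was placed in this class when its hg38 sequence from start to end had a GC content under 40% and an absolute GC skew under 0.7, on chromosomes 1 to 22. GC skew is (G − C)/(G + C) on the plus strand, so an absolute value near 1 means that 1 strand holds nearly all the G. The rule used the reference sequence and no read count. It gave 1407 of 41785 origins in the joined origins of WT and *ORC1Δ* cells, 1659 of 43698 in those of WT and *ORC2Δ* cells, and 1471 of 46021 in those of WT and *ORC5Δ* cells. Joined where they overlapped by 1 bp or more, these made 2553 loci, of which 798 were AT-rich origins in all 3 tables, 386 in 2, and 1369 in 1. Origin ends differ between tables, and the GC content of a locus differs with them.

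The origins were mapped by SNS-seq, the sequencing of short nascent strands that start at origins, enriched by size selection and λ-exonuclease digestion of genomic DNA. The samples were 8 libraries from 4 lines, with 2 replicates each. WT denotes HCT116 p53−/− cells, an epithelial colon cancer line without p53, and *ORC1Δ*, *ORC2Δ*, and *ORC5Δ* (labelled ORC1KO, ORC2KO, and ORC5KO) are derivatives made by CRISPR–Cas9, so all 4 lines lack p53. The cells were untreated. Whether each knockout line is a single clone is not given in the sources used here, and a difference from WT cannot be told apart from a difference between lines that arose in culture. The count tables merge the replicates, so each line has 1 value per origin and table, and no test between lines was possible. The tables held 6416892 to 8523971 reads of each line, and AT-rich origins held 1.95% to 2.35% of them.

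ORC is the multisubunit complex that loads the MCM2–7 helicase on DNA before S phase, and the loaded helicase marks the places where replication may start. In budding yeast ORC binds an AT-rich consensus sequence. Human ORC shows no such sequence preference, and human origins are known for GC-rich DNA, CpG islands, and G-quadruplexes, 4-stranded folds of DNA with several runs of G. AT-rich origins differ from that description in their GC content.

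The 200 bases around the midpoint show what such DNA looks like. Runs of 3 or more G or C are in capitals, the plus strand of hg38 is given, and the coordinates follow the sequences. The first had the highest smallest log2 fold over the 3 knockout lines, the next 3 the lowest largest log2 fold, the next 2 the highest WT signal per kb, and the last the lowest GC content, among 790 loci with 1 origin in each table and at least 100 reads of both lines in each.

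Higher in knockouts, chromosome 10: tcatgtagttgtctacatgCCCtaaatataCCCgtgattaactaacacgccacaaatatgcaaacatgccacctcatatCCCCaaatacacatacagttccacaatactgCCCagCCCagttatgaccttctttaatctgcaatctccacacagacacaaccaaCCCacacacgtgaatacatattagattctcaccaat
Lower in knockouts, chromosome 12: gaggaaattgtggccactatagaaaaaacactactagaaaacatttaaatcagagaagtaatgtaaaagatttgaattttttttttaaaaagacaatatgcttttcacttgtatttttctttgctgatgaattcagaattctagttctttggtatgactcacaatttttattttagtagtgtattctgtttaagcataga
Lower in knockouts, chromosome 2: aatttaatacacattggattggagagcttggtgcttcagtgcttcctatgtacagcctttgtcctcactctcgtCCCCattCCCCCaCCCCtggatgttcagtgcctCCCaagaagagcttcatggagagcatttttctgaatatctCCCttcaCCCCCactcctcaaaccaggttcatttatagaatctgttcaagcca
Lower in knockouts, chromosome 19: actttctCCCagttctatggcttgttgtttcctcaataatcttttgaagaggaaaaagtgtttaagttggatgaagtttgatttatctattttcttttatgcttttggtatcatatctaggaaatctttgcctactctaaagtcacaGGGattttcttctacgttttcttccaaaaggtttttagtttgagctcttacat
Highest WT signal, narrower origin on chromosome 16: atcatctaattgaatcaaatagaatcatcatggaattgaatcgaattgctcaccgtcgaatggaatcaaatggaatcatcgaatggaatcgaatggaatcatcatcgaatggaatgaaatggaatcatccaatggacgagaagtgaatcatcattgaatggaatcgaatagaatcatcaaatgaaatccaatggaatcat
Highest WT signal, wider origin on chromosome 16: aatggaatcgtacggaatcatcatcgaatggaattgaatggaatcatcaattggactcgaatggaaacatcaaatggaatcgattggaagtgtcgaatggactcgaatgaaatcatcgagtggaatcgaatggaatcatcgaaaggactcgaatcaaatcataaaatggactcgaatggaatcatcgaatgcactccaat
Lowest GC content, chromosome 5: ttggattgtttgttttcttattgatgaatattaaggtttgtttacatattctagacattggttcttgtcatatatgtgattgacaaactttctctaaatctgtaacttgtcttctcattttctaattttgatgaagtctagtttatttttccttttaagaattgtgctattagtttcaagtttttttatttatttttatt

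These windows lie at chr10:46203812-46204011, chr12:78286005-78286204, chr2:39677082-39677281, chr19:6181492-6181691, chr16:46394673-46394872, chr16:46390308-46390507, and chr5:73874213-73874412 (hg38), in the order shown. Their GC content ranged from 24% to 47%. The pair of highest signal is built from imperfect copies of GGAAT, the unit of a pericentromeric satellite.

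The 25 bases of highest G4Hunter score, a measure that rises with runs of G on 1 strand, are shown for 2 of these origins. They were picked as examples of the position and the strand described below.

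Lower in knockouts, chromosome 12, best window: CCCCaCCCCCCCgCCCCCCtccgcc
Lower in knockouts, chromosome 19, best window: gtCCCCaCCCgCCCCCCCCCCCaac

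Their absolute scores were 3.04 and 2.72, and both passed the score taken here as a G-quadruplex motif. They lay at chr12:78286324-78286348 and chr19:6181803-6181827, which is 232 and 223 bp from the midpoint of the origin. Both lay to the right of the midpoint and carried their G on the minus strand. In both the G-rich strand ran 5′ to 3′ toward the midpoint. The best window of the chromosome 10 origin, of absolute score 1.56, lay 172 bp to the right and also pointed its G-rich strand inward. The chromosome 2 origin went the other way. Its best window, at chr2:39677148-39677172 with an absolute score of 2.16, lay 22 bp to the left of the midpoint. It carried its G on the minus strand, which there ran away from the midpoint.

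Such motifs were frequent. Of AT-rich origins, 61.3% (863 of 1407, 95% Wilson interval 58.8% to 63.8%), 73.5% (1220 of 1659), and 70.3% (1034 of 1471) in the *ORC1Δ*, *ORC2Δ*, and *ORC5Δ* tables held a G-quadruplex motif. Windows of the same width 5 kb to either side, outside all origins of the table, held one in 14.2%, 15.7%, and 14.7%. Other origins held one in 85.97%, 88.7%, and 87.6%. AT-rich origins therefore stood between their surroundings and other origins, although the windows beside them had the higher GC content, with medians of 38.9% to 39.4% against 37.9% to 38.1% in the origins. 

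The motif lay toward the ends of AT-rich origins. Its centre was in the outer 25% at either end in 68.1% (588 of 863, interval 64.95% to 71.2%), 76.8%, and 72.4% of AT-rich origins that held it, against 41.6%, 42.4%, and 41.03% of other origins. The G-rich strand of the motif ran away from the midpoint in 12.51% (interval 10.5% to 14.9%), 7.38%, and 8.70% of AT-rich origins and in 37.3%, 35.9%, and 37.4% of other origins. Among motifs in the outer parts the shares were 4.25%, 2.45%, and 2.80% in AT-rich origins and 28.5%, 27.0%, and 29.0% in other origins. Nearly all end motifs of AT-rich origins therefore pointed their G-rich strand inward, and the intervals of the shares did not overlap those of other origins. The midpoint is that of the interval given in the table, not a measured start of synthesis.

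The same shape appeared when the sequence was averaged over origins without searching for motifs. Mean GC content in the central 200 bp of AT-rich origins was 36.3%, 34.9%, and 35.6% in the 3 tables, against 39.3% to 39.5% more than 2500 bp away. In other origins it rose from 47.5% to 47.8% at that distance to 54.4% to 54.8% at the centre. Mean GC content thus dipped at AT-rich origins and peaked at other origins. The limit on GC content favours both shapes by itself, so this difference is a description. GC skew in 100-bp bins reached 0.105, 0.138, and 0.138 at 150 bp to the left of the midpoint and -0.105, -0.131, and -0.118 at 150 bp to the right, while other origins reached 0.0421, 0.0426, and 0.0382 and -0.0445, -0.0464, and -0.0426 at the same places. The switch of strand was in the same direction in both classes and larger in AT-rich origins. The rule fixes a low GC content inside the origin, which favours a centre below its surroundings. It does not fix the sign of the skew on each side.

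**Figure D1:**
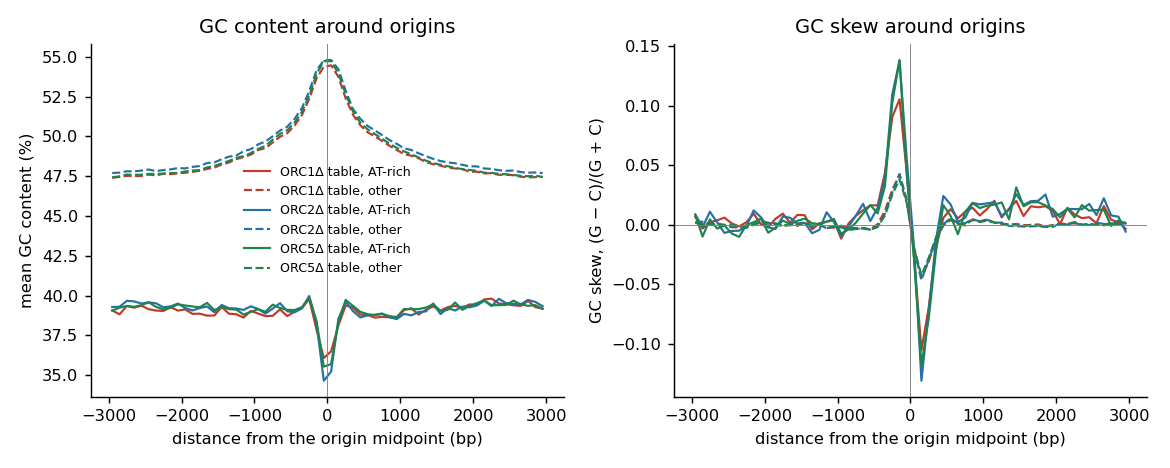
Mean GC content (left, percent) and GC skew (right, (G − C)/(G + C) on the plus strand) in 100-bp bins by distance from the origin midpoint in bp, for AT-rich origins (solid lines) and other origins (dashed lines) of the 3 tables (colours). AT-rich origins dip to 34.6% to 36.1% in their lowest bin where other origins peak, which the limit on GC content favours. Their skew changes sign at the midpoint with a larger swing.

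The GC content of AT-rich origins was above that of the 5 kb on either side in 37.2% (524 of 1407, interval 34.8% to 39.8%), 32.7%, and 34.9%, against 85.1%, 84.8%, and 85.9% of other origins. The limit on GC content lowers this share by itself, so the difference is a description. The 5-kb flanks of AT-rich origins had a median GC content of 38.9% to 39.1%, and those of other origins 47.4% to 47.8%. AT-rich DNA at an origin hence went with AT-rich DNA around it. Within the origins, the richest 100 bases still had a median GC content of 50.0% to 52.0%, and 97.0% to 97.2% of AT-rich origins held 100 bases above 40%.

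The strand with more G also held more A in 74.9% (1042 of 1391), 74.9% (1226 of 1636), and 74.98% (1091 of 1455) of AT-rich origins with both skews other than 0. Other origins gave 78.1%, 76.5%, and 77.8%. Over all windows beside AT-rich origins, with ties counted as failures, the share was 55.3% to 55.9%. A purine-rich strand was therefore as usual in AT-rich origins as in other origins to within a few percentage points. Median absolute GC skew was lower in AT-rich origins, at 0.23, 0.18, and 0.20 against 0.36, 0.34, and 0.34, and the median in windows beside them was 0.09. The rule keeps absolute skews of 0.7 or more out of the AT-rich class and not out of the other origins, so the first of these differences is a description. Inside protein-coding genes, the strand with more G was the coding strand in 54.2% (346 of 638, interval 50.4% to 58.1%), 47.7% (350 of 733, 44.2% to 51.4%), and 52.2% of AT-rich origins, against 57.3%, 56.5%, and 57.0% of other origins.

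Simple AT-rich motifs were more frequent in AT-rich origins than in other origins. Compared with the windows beside AT-rich origins, runs of A or T were less frequent, and for the other motifs of this kind the intervals of the shares overlapped. Runs of 10 or more A or T were found in 7.18%, 9.52%, and 7.75% of AT-rich origins, in 2.10%, 2.74%, and 2.37% of other origins, and in 13.9%, 13.8%, and 12.9% of the windows beside AT-rich origins. The consensus of budding yeast origins, searched on both strands, occurred in 4.62% (65 origins), 5.06% (84), and 5.23% (77), in 1.08%, 1.16%, and 1.12% of other origins, and in 4.79%, 4.58%, and 4.87% of the windows. Repeats of at least 6 copies of AT were rare, in 1.00%, 1.51%, and 1.02% of AT-rich origins, 0.106%, 0.114%, and 0.121% of other origins, and 1.12%, 1.04%, and 0.859% of the windows. At least 4 copies of GGAA in any rotation on either strand occurred in 1.99%, 2.23%, and 1.90% of AT-rich origins and in 0.225%, 0.0948%, and 0.179% of the windows, with 1.53%, 2.03%, and 1.53% in other origins. Repeats of ATCC, searched the same way, were in 0.924%, 0.663%, and 1.16% of AT-rich origins and in 2.45%, 2.31%, and 2.24% of other origins. They were in 0.150%, 0.0632%, and 0.0716% of the windows, on 4, 2, and 2 windows. Other origins with ATCC repeats had median absolute GC skews of 0.73, 0.75, and 0.74. The skew limit of 0.7 keeps origins of such skew out of the AT-rich class only, so its lower share against other origins is a description. A match to a motif is a description of the sequence and not evidence of binding.

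AT-rich origins lay away from promoters. The start site of the nearest protein-coding gene was a median of 88241, 88236, and 86540 bp away, against 32794, 31579, and 32312 bp for other origins. It was within 2 kb in 1.07%, 0.964%, and 1.29% of AT-rich origins and in 11.3%, 12.0%, and 11.6% of other origins. Exons of protein-coding genes were touched by 2.84%, 3.68%, and 3.94%, against 14.9%, 16.0%, and 15.7%. Introns made up most of the rest inside genes, with 43.1%, 41.3%, and 42.4% of AT-rich origins in introns only, close to the 43.6%, 42.5%, and 43.0% of other origins. No gene of any kind was touched by 38.7%, 40.02%, and 38.95%, against 28.8%, 29.0%, and 28.9%. CpG islands, stretches of CpG-rich DNA typical of promoters, were touched by 3, 3, and 2 AT-rich origins and by 14.4%, 15.5%, and 14.9% of other origins, a difference that the limit on GC content largely fixes. The host genes were long, with a median of 175300 to 183694 bp against 93747 to 98547 bp.

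Of the 2553 AT-rich loci, 1194 overlapped a protein-coding gene, spread over 1026 genes, of which 857 held 1 locus and 4 held 5 or more. The 5 genes with the most were HPSE2 on chromosome 10, which encodes heparanase 2, with 9 of its 22 origin loci AT-rich, ATRNL1 on chromosome 10 with 6 of 11, VPS13B on chromosome 8, which encodes a lipid transfer protein of the Golgi, with 6 of 13, ULK4 on chromosome 3 with 5 of 17, and CD36 on chromosome 7, which encodes a fatty acid receptor, with 4 of 5. The 7 AT-rich origins of HPSE2 in the *ORC2Δ* table had log2 folds from -0.45 to 0.26, and none of the AT-rich origins in HPSE2, ATRNL1, VPS13B, or ULK4 was up or down by 1.5-fold in any line. In CD36, 1 AT-rich origin was up in *ORC1Δ* cells, with a log2 fold of 0.68.

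The share of origins that were AT-rich differed widely between chromosomes. It was lowest on the gene-dense chromosome 19, at 0.669%, 0.655%, and 0.643% in the *ORC1Δ*, *ORC2Δ*, and *ORC5Δ* tables, and highest at 6.88% on chromosome 8 in the first table and at 9.14% and 7.23% on chromosome 13 in the other tables. Chromosome 8 held the most AT-rich origins per Mb in each table, with 1.25, 1.03, and 1.03.

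AT-rich origins were narrower and weaker than other origins. Their median width was 461, 462, and 461 bp against 536, 543, and 539 bp. Median WT counts were 80, 77, and 79 reads against 116, 114, and 112. Scaled to all reads of the line in the table (RPM) and to the width of the origin, the WT signal had medians, in RPM per kb, of 27.3, 25.4, and 25.6 against 34.2, 32.3, and 30.5. The knockout signal in AT-rich origins had medians of 29.9 RPM per kb for *ORC1Δ*, 26.1 for *ORC2Δ*, and 24.8 for *ORC5Δ* cells. Their next origin was farther off, with a median gap of 10393, 9896, and 9684 bp against 7160, 6766, and 6660 bp. With such counts the 95% interval of the log2 fold of 1 AT-rich origin had a median half-width of 0.45 to 0.46, which covers counting error only. Reads without molecular identifiers are not independent molecules.

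Fewer AT-rich origins were shared between lines. In the lists of origins found in both replicates of a line, AT-rich origins made up 2.67% in WT (798 of 29908, interval 2.49% to 2.86%), 3.13% in *ORC1Δ* (1039 of 33245, 2.94% to 3.32%), 3.81% in *ORC2Δ* (1423 of 37369, 3.62% to 4.01%), and 2.93% in *ORC5Δ* cells (1200 of 40918, 2.77% to 3.10%). The interval of *ORC2Δ* lies above those of the other 3 lines. These intervals run over the origins of a list, which are not replicates, so a difference between lines was not tested. The motif content differed as well, since 53.8% of the AT-rich origins on the *ORC1Δ* list held a G-quadruplex motif, against 72.1%, 72.4%, and 68.8% on the WT, *ORC2Δ*, and *ORC5Δ* lists. Of the 798 AT-rich origins of WT cells, 329 were called in all 3 knockout lines (41.2%, interval 37.9% to 44.7%) and 133 in none (16.7%, 14.2% to 19.4%), against 60.9% and 7.96% of other WT origins. By line, *ORC1Δ* cells kept a call at 53.8% of them, *ORC2Δ* cells at 69.0%, and *ORC5Δ* cells at 66.4%, against 71.6%, 78.8%, and 83.0% of other WT origins. AT-rich origins also had the lower signal, and its part in these shares was not tested.

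The shares called in 1 line of a pair also set AT-rich origins apart. Among those in the *ORC1Δ* table, 623 of 1407 (44.3%) were called in *ORC1Δ* and not in WT cells, against 28.6% of all origins in the table, and 369 (26.2%) were called in WT and not in *ORC1Δ* cells, against 20.7%. For *ORC2Δ* the shares were 52.5% (871 of 1659) against 31.9%, and 14.9% (247) against 14.7%. For *ORC5Δ* they were 47.4% (697 of 1471) against 35.3%, and 18.2% (268) against 11.3%. Gains of AT-rich origins by presence were therefore above the share of all origins in the 3 lines. The shares of losses are of all origins in the joined table, gains included, and per WT origin AT-rich origins were kept less often in each line, *ORC2Δ* included (69.0% against 78.8%). Of the AT-rich origins on each knockout list, 30.3%, 33.0%, and 23.5% were on no other list, against 12.3%, 11.9%, and 15.4% of other origins.

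In *ORC1Δ* cells AT-rich origins were on balance higher than other origins. Their median log2 fold over WT was 0.14 (interval of the median 0.12 to 0.16), against -0.01 for all origins. Up by 1.5-fold or more were 203 of 1407 AT-rich origins (14.4%, interval 12.7% to 16.4%), against 7.00% of all origins, and down by 1.5-fold were 31 (2.20%, 1.56% to 3.11%), against 3.95%. With the trend of the log2 fold over the GC content of all origins subtracted, which brings the difference near 0 by construction, the median of AT-rich origins was no longer above that of all origins (difference -0.02), and 102 were up and 85 down. These were 7.25% and 6.04% of AT-rich origins, against 4.72% and 2.84% of all origins, so both shares stayed above those of all origins. Of the 203, 202 had a counting interval above 0, and 19 AT-rich origins had one wholly above 1.5-fold. The first count is largely fixed, because the 203 were picked by fold on the same reads. Neither count is given for all origins. AT-rich origins were above the median of all origins of the same chromosome on 20 of 22 chromosomes. The excess of upregulated origins held at each level of counts: 23.03% of AT-rich against 15.1% of all origins with under 150 reads of both lines, 11.8% against 7.05% from 150 to 200, 8.04% against 5.42% from 200 to 300, and 10.7% against 5.54% above that.

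In *ORC2Δ* cells the difference was smaller. The median log2 fold was 0.05 (0.03 to 0.07), against -0.04 for all origins. Up by 1.5-fold were 106 of 1659 (6.39%, 5.31% to 7.67%), against 4.62% of all origins, and down were 38 (2.29%, 1.67% to 3.13%), against 3.61%. With the trend over GC content subtracted the difference of the medians was -0.0150, and 82 were up and 48 down. These were 4.94% and 2.89% of AT-rich origins, against 4.97% and 2.99% of all origins. The excess of upregulated origins was seen at low counts, with 11.5% against 9.40% under 150 reads and 4.40% against 3.95% from 150 to 200, but 2.86% against 3.69% from 200 to 300 and 3.37% against 4.11% above that. Median log2 folds of AT-rich origins at these levels were 0.12, 0.04, 0.00, and 0.01.

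In *ORC5Δ* cells AT-rich origins were slightly lower than other origins. The median log2 fold was -0.04 (-0.06 to -0.03), against 0.00 for all origins. Up by 1.5-fold were 22 of 1471 (1.496%, 0.990% to 2.25%), against 2.05% of all origins, and down were 23 (1.56%, 1.04% to 2.34%), against 0.682%. AT-rich origins thus made up 7.32% of all downregulated origins in *ORC5Δ* and 6.94% of all upregulated origins in *ORC1Δ* cells. Here the excess of downregulated origins was absent at the lowest counts (2.41% against 3.15%) and present above, with 1.53% against 0.978%, 0.811% against 0.352%, and 1.23% against 0.155%, on 8, 3, and 2 origins. AT-rich origins were above the median of all origins of their chromosome on 2 of 22 chromosomes.

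**Figure D2:**
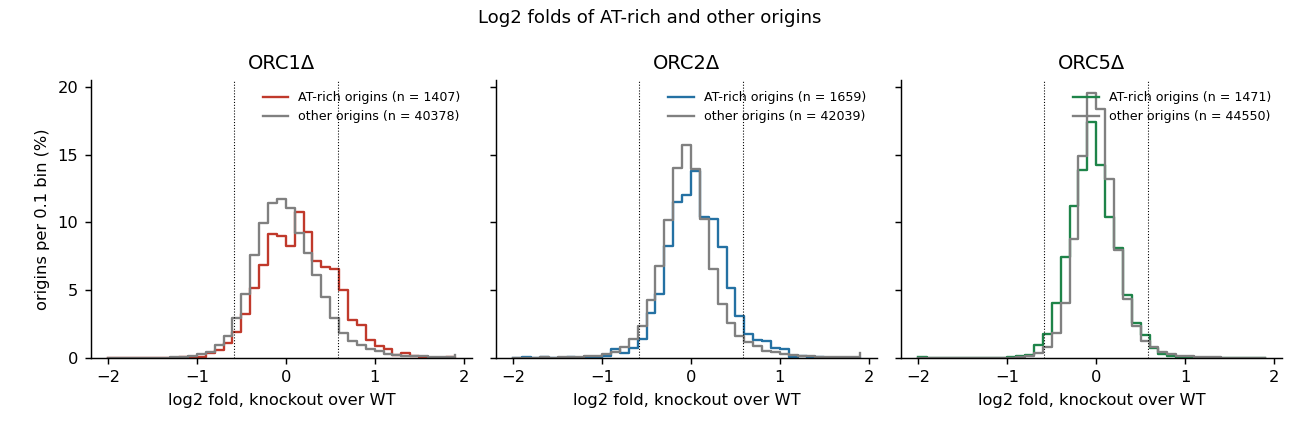
Share of origins (percent, vertical axis) in bins of 0.1 of the log2 fold of knockout over WT (horizontal axis), for AT-rich origins (coloured) and other origins (grey) in *ORC1Δ*, *ORC2Δ*, and *ORC5Δ*. Dotted lines mark 1.5-fold, and the outermost bins also hold values beyond the axis. AT-rich origins are shifted to higher values in *ORC1Δ* (median 0.14 against -0.02 for other origins), less so in *ORC2Δ* (0.05 against -0.04), and slightly to lower values in *ORC5Δ* (-0.04 against 0.00).

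The 3 comparisons share the WT libraries, so their values are given side by side and not set against each other. At the 796 loci with 1 origin in each table, all AT-rich, the WT reads largely cancel in the difference of 2 log2 folds. Its median was 0.12 (0.10 to 0.14) for *ORC1Δ* minus *ORC5Δ*, 0.08 (0.06 to 0.09) for *ORC2Δ* minus *ORC5Δ*, and 0.04 (0.02 to 0.06) for *ORC1Δ* minus *ORC2Δ*. These loci had median log2 folds of -0.03, -0.07, and -0.12 in *ORC1Δ*, *ORC2Δ*, and *ORC5Δ*, lower than those of all AT-rich origins. All origins, AT-rich or not, had medians of -0.01, -0.04, and 0.00. The differences above are not corrected for this. A locus present in every table is one called in WT or in all 3 knockout lines.

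The fold changes of AT-rich origins were part of a trend over GC content that did not run straight. In *ORC1Δ* cells the median log2 fold, over origins with absolute GC skew under 0.7, was -0.40 above 70% GC, rose to 0.23 (0.20 to 0.26) between 40% and 42%, and then fell within the AT-rich class to 0.17 between 38% and 40%, 0.13 between 36% and 38%, 0.07 between 34% and 36%, -0.09 (-0.18 to 0.12) between 32% and 34%, and -0.16 (23 origins, -0.39 to 0.16) between 30% and 32%. Under 30% it was 0.11, on 10 origins and with an interval of -0.24 to 0.18. Just inside the GC limit, from 39% to 40%, it was 0.16 (404 origins), and just outside, from 40% to 41%, it was 0.25 (570). AT-rich origins under 35% GC had a median of -0.04 (174 origins, -0.12 to 0.05), and those from 35% to 40% one of 0.16 (1233, 0.14 to 0.18). In *ORC2Δ* cells the corresponding values were 0.08 (244) and 0.04 (1415), with 0.01 just inside and 0.00 just outside the limit, and in *ORC5Δ* cells they were -0.09 (184) and -0.04 (1287), with -0.03 just inside and 0.01 just outside. The shift of AT-rich origins in *ORC1Δ* cells was thus smaller under 35% GC than from 35% to 40%. Median absolute GC skew was lower there too, at 0.14 under 35% and 0.24 from 35% to 40%, and its part was not tested. Subtracting the trend over all origins brings the shift near 0 by construction, so its absence then decides nothing.

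**Figure D3:**
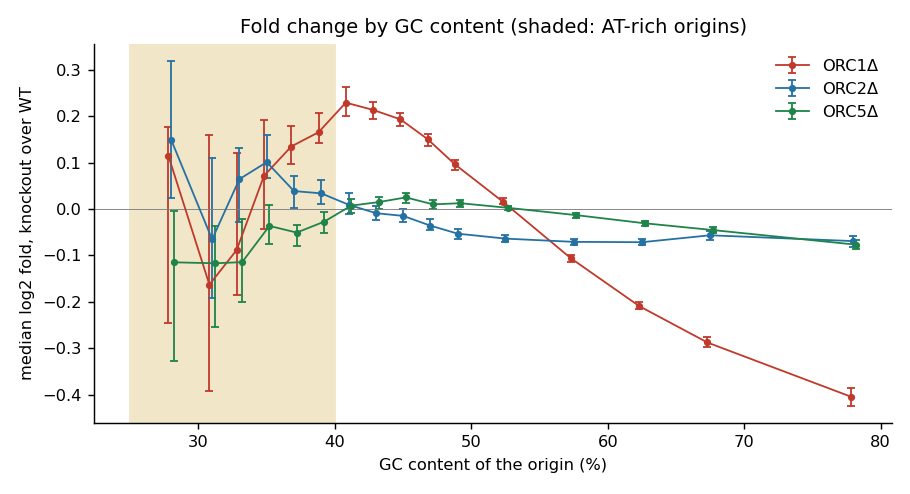
Median log2 fold of knockout over WT (vertical axis) by GC content of the origin in percent (horizontal axis) for *ORC1Δ*, *ORC2Δ*, and *ORC5Δ*, over origins with absolute GC skew under 0.7. Bars are 95% intervals of the median, and the shaded part holds AT-rich origins. *ORC1Δ* peaks at 0.23 between 40% and 42% GC, and is lower on both sides, down to -0.16 between 30% and 32% and with 0.11 on 10 origins under 30%.

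Fold changes also differed with GC skew among AT-rich origins. In *ORC1Δ* cells the median log2 fold rose from -0.06 (284 origins) at an absolute GC skew under 0.1 to 0.15 (175) between 0.3 and 0.4 and 0.54 (44, interval 0.45 to 0.64) between 0.6 and 0.7. The share up by 1.5-fold rose from 4.93% to 43.2% over the same range. In *ORC5Δ* cells the median rose from -0.11 (336) to 0.18 (28, 0.00 to 0.31). The *ORC2Δ* medians lay between 0.00 and 0.07 up to an absolute skew of 0.5 and reached 0.43 (34, -0.04 to 0.63) between 0.6 and 0.7. The origins of GC under 40% that the skew limit kept out, 52, 67, and 51, had medians of 0.71, 0.52, and 0.42. Origins of 40% GC or more rose with skew in the 3 lines too, from -0.24, -0.09, and -0.06 to 0.37, 0.28, and 0.16 over the same bins, so higher folds at high skew were found outside the AT-rich class too. AT-rich origins of low skew, under 0.2, had medians of -0.01 (607), 0.04 (902), and -0.08 (730).

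**Figure D4:**
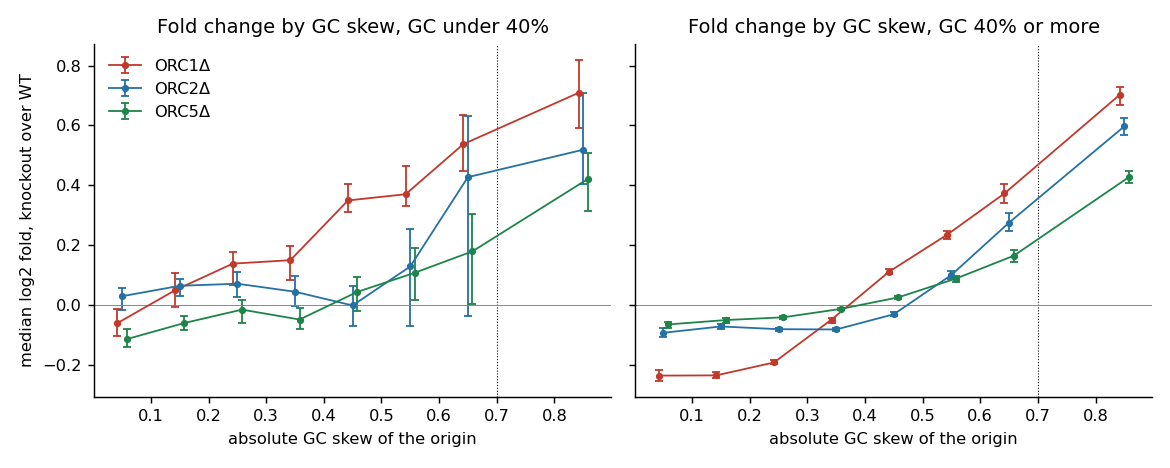
Median log2 fold of knockout over WT (vertical axis) by absolute GC skew (horizontal axis) for *ORC1Δ*, *ORC2Δ*, and *ORC5Δ*, in origins under 40% GC (left) and of 40% GC or more (right). Bars are 95% intervals of the median, and the dotted line is the skew limit of 0.7. In the left panel *ORC1Δ* climbs from -0.06 to 0.54 below the limit, while *ORC2Δ* stays between 0.00 and 0.07 up to a skew of 0.5.

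In *ORC1Δ* cells AT-rich origins without a G-quadruplex motif were higher than those with it. Their median log2 fold was 0.33 (544 origins, 0.28 to 0.38), against 0.03 (863, -0.01 to 0.06) for those with the motif, and 142 (26.1%, 22.6% to 29.95%) were up by 1.5-fold, against 61 (7.07%, 5.54% to 8.98%). Absolute GC skew was close in both, at 0.24 and 0.22, and median WT counts were 72.5 and 86 reads. In *ORC2Δ* cells the medians were 0.08 without and 0.03 with the motif, with 9.11% and 5.41% upregulated, and in *ORC5Δ* cells -0.02 and -0.06, with 1.83% and 1.35%. Other origins had the same order in *ORC1Δ* cells, with 0.28 without and -0.06 with the motif. The 40, 61, and 58 AT-rich origins that touched an exon had medians of -0.10, -0.02, and -0.13. Those with runs of 10 or more A or T had medians of -0.06 (101), 0.08 (158), and -0.13 (114), and those with GGAA repeats 0.42 (28), 0.34 (37), and 0.25 (28). AT-rich origins with GGAA repeats also had the higher median absolute GC skew, at 0.43, 0.38, and 0.46 against 0.22, 0.18, and 0.20 without. The part of skew in their folds was not tested. In *ORC1Δ* cells AT-rich origins that stood above their 5-kb flanks in GC content had a median of 0.23, and the others 0.09.

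The calls of single lines moved with the fold changes, as both come from the same reads. AT-rich origins called only in *ORC1Δ* had a median log2 fold of 0.43 and a median absolute GC skew of 0.32, those called only in WT -0.18 and 0.19, and those called in both 0.07 and 0.18. Of the 203 upregulated AT-rich origins in *ORC1Δ* cells, 193 were called only in *ORC1Δ*. Of the 106 in *ORC2Δ* cells, 100 were called only in *ORC2Δ*, and of the 22 in *ORC5Δ* cells, 21 only in *ORC5Δ*. Nearly all upregulated AT-rich origins were hence origins not called in WT cells. The same share among all upregulated origins is not given here, so this is not shown to be particular to AT-rich origins.

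The origins named next were picked by their values, so their fold changes are a description. The 6 loci with the highest smallest log2 fold over the 3 lines were all called in the 3 knockout lines and not in WT. The first lay outside genes at chr10:46203689-46204134 and had 6.08 RPM in WT and 12.7 RPM in *ORC1Δ* cells, for a log2 fold of 1.06 (interval 0.50 to 1.65), with 0.71 in *ORC2Δ* and 0.86 in *ORC5Δ* cells. Its absolute GC skew was 0.65, close to the limit of the class. Of the rest, 3 lay at chr4:49101315-49101677 outside genes, in an intron of SNPH, which anchors mitochondria in axons, and in an intron of DOCK1, an activator of Rac. Their log2 folds ranged from 0.48 to 1.06 over the 3 lines, and the interval of the chromosome 4 origin in *ORC5Δ*, -0.04 to 1.11, was the only one of the 18 that reached 0. The chromosome 4 origin is among those with at least 20 copies of GGAAT or ATTCC per kb described below. Reads from such near-identical copies cannot be placed with certainty, so its values may mix several copies.

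The 6 loci with the lowest largest log2 fold were all called in WT cells and not in *ORC1Δ*, and 3 of them in no knockout line. The first lay outside genes at chr12:78285806-78286403, 577888 bp from the start of SYT1, with 16.2 RPM in WT and 9.86 RPM in *ORC1Δ* cells and log2 folds of -0.72 (-1.18 to -0.26), -0.59, and -0.69. Its GC skew was 0.03, although it held the run of C shown above. The second, in an intron of TMEM178A at chr2:39676959-39677405, had log2 folds of -0.80, -0.83, and -0.52, and the next, within both RFX2, a factor of cilium genes, and ACSBG2, an acyl-CoA synthetase, at chr19:6181291-6181893, had -0.77, -0.59, and -0.50. The remaining 3 lay in introns of CLYBL, a mitochondrial enzyme gene, and SPAG16, a gene of the sperm flagellum, and 5369 bp from the start of SHPRH, a ubiquitin ligase gene. All 18 intervals lay below 0. The absolute GC skew of these 6 was 0.21 or less, and 5 of the 6 origins that were higher in knockouts had 0.29 or more.

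The loci where the 3 lines differed most were called in WT cells and low in *ORC2Δ*. An origin outside genes at chr6:16190995-16191607 had 13.9 RPM in WT and 3.97 RPM in *ORC2Δ* cells, for a log2 fold of -1.80 (-2.44 to -1.20), against -0.52 in *ORC1Δ* and -0.42 in *ORC5Δ*. An origin in an intron of NEDD9, a scaffold protein of focal adhesions, at chr6:11371851-11372232, had -0.97 in *ORC2Δ* against 0.20 and 0.21. One in a long noncoding RNA gene at chr13:111662731-111663256 had -1.37 against -0.60 and -0.28. The chromosome 6 loci lie in its first 20 Mb. Without the first 20 Mb of chromosomes 2 and 6 and the first 65 Mb of chromosome 5, 30 AT-rich origins were down in *ORC2Δ* cells in place of 38. The 30 were 1.87% of AT-rich origins, against 3.27% of all origins. With these segments kept the shares were 2.29% against 3.61%, so the share fell in all origins too.

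The lowest GC content among the ranked loci was 25.8%, in an intron of ARHGEF28 at chr5:73874151-73874475. Its log2 folds were 0.18, 0.14, and -0.02, each with an interval that held 0. It had 9.66 RPM in WT and 10.9 RPM in *ORC1Δ* cells. The other 3 of lowest GC content, on chromosomes 16, 6, and 3, had 26.9% to 29.1% GC and log2 folds from -0.33 to 0.17, and every interval held 0. None held a G-quadruplex motif.

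**Figure D5:**
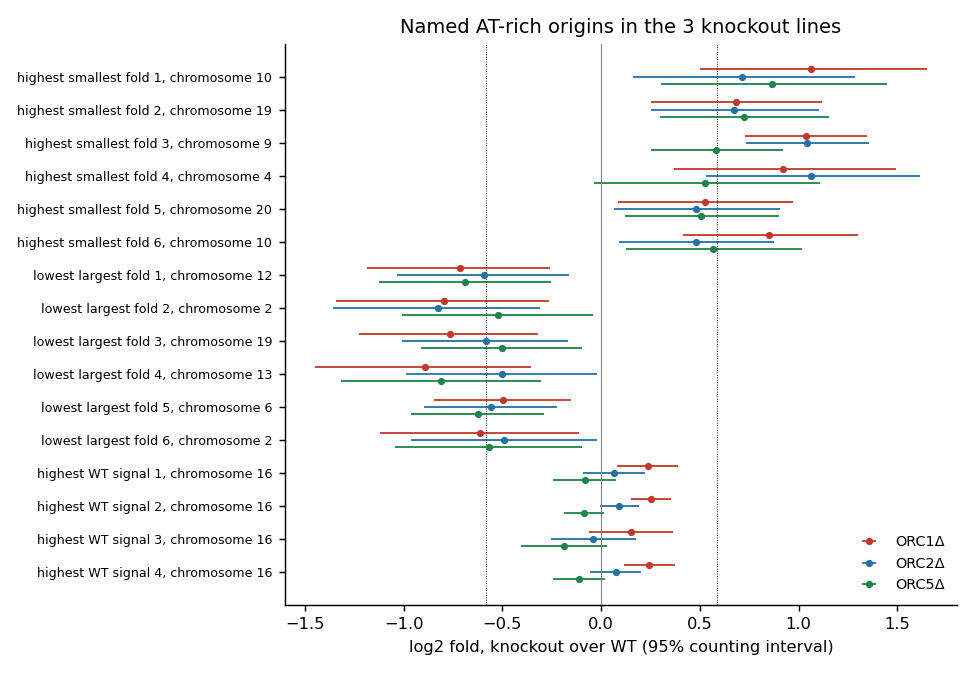
Log2 fold of knockout over WT (horizontal axis) with 95% counting intervals for 16 named AT-rich loci (rows) in *ORC1Δ*, *ORC2Δ*, and *ORC5Δ*: the 6 with the highest smallest fold, the 6 with the lowest largest fold, and the 4 with the highest WT signal per kb. Dotted lines mark 1.5-fold. The first 6 lie right of 0 and the next 6 left of 0, as the choice fixes, and the 4 of highest signal lie between -0.19 and 0.25.

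The 4 loci of highest WT signal lay together at chr16:46387715-46399748, outside genes, with 130 to 160 RPM per kb. The widest, at chr16:46389631-46391185, had 227 RPM in WT and 271 RPM in *ORC1Δ* cells, for a log2 fold of 0.25 (0.15 to 0.35), with 0.09 (-0.01 to 0.19) in *ORC2Δ* and -0.09 (-0.19 to 0.02) in *ORC5Δ*. The log2 folds of the 4 lay between 0.15 and 0.25 for *ORC1Δ*, between -0.04 and 0.09 for *ORC2Δ*, and between -0.19 and -0.08 for *ORC5Δ*. They held no G-quadruplex motif and were built from GGAAT units, and reads from such near-identical copies cannot be placed with certainty, so their values may mix several copies. Origins with at least 20 copies of GGAAT or ATTCC per kb, a limit chosen after the values were seen, made up 58, 61, and 53 AT-rich origins, 22 of them on chromosome 16, and held 10.2%, 9.15%, and 9.39% of the WT reads of AT-rich origins. Their median log2 folds were 0.45, 0.27, and 0.00. Without all such origins the median of AT-rich origins minus that of all origins was 0.14, 0.08, and -0.04.

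Among loci that touched an exon, the strongest in WT cells lay in CENPC at chr4:67514293-67515014, a gene for a centromere protein, with 36.3 RPM in WT and 29.4 RPM in *ORC1Δ* cells and log2 folds of -0.30, -0.29, and -0.34, each with an interval below 0. The next were in MBTD1 at chr17:51179978-51180684, where the origin also touched an untranslated region, in F5, the gene for coagulation factor V, at chr1:169549754-169550285, and in RGS22 on chromosome 8. Their log2 folds ran from -0.11 to -0.19 in MBTD1, -0.06 to -0.49 in F5, and -0.02 to -0.28 in RGS22. None was up or down by 1.5-fold.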

How the data were processed

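SNS-seq was made from 8 samples, 2 replicates each of WT, *ORC1Δ*, *ORC2Δ*, and *ORC5Δ* HCT116 p53−/− cells. Per the submitters' processing notes, reads were trimmed with Trim Galore 0.6.4 and processed with Bowtie, MACS2, and bedtools on GRCh38. The authors called peaks in each replicate and kept those found in both. The 3 deposited tables hold read counts of WT and 1 knockout line, not normalized, with replicates merged, in the joined origins of both lines. The counting tool and the treatment of duplicate reads are not given in the sources used here. The 4 deposited lists hold the other values used, start and end positions of origins. Size selection and exonuclease digestion favour some sequences, and no column measures that.

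Counts were scaled to all reads of the line in the table (RPM), other contigs included. Sequences came from hg38 and genes from GENCODE release 44. Up and down mean 1.5-fold or more in RPM, without a pseudocount or a filter on low counts. Intervals of shares are 95% Wilson intervals, those of single log2 folds exact Clopper–Pearson intervals, and those of medians binomial order-statistic intervals over origins, which are not replicates. Lists were matched at an overlap of 1 bp. Genes, exons, CpG islands (over 200 bp, at least 50% GC, observed over expected CpG above 0.6), and G4Hunter scores (at least 1.52 in 25 bases) were found by script. Python 3.11.15, pysam 0.24.0, scipy 1.17.1, and edgeR 4.0.16 (TMM factors only) were used. Functions were tested on simulated data. Named loci had 1 AT-rich origin in each table and at least 100 reads of both lines in each. They were the 6 with the highest smallest and the 6 with the lowest largest log2 fold, the 4 of highest WT RPM per kb, the 4 of lowest GC content, the 3 of widest range, the 4 strongest over exons, and the 5 genes with most AT-rich loci. The members and lists were chosen with earlier results of these data known. Some loci and sequences that this rule names are not reported here.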

Additional observations from a re-analysis of the deposited data

Results flagged for a closer look

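The median log2 fold of AT-rich origins minus that of all origins was on opposite sides of 0 in different knockout lines under the same comparison with WT. It was 0.156 in *ORC1Δ* and 0.0858 in *ORC2Δ*, and -0.0391 in *ORC5Δ*. Each line has 1 merged value, so the difference between lines was not tested.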

How the results depend on the processing

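No paired analysis was possible because the tables merge the replicates of each line, and for the same reason no replicate could be left out. Of 142 values recomputed under an alternative, 83 kept their direction and moved little, 55 moved, and 4 reversed. In the order *ORC1Δ*, *ORC2Δ*, *ORC5Δ*, the median log2 fold of AT-rich origins minus that of all origins was -0.0249, -0.0150, and -0.00902 with the GC trend of all origins removed, which brings it near 0 by construction. It was -0.0302, 0.118, and -0.0877 under 35% GC and 0.207, 0.0520, and 0.00250 under 45% GC, so *ORC1Δ* reversed under 35% and *ORC5Δ* under 45%, and both *ORC1Δ* and *ORC2Δ* reversed with the trend removed. It was 0.0667 in *ORC2Δ* and -0.0678 in *ORC5Δ* at widths of 500 bp or more, and 0.0361 and -0.0704 with at least 200 reads, a limit chosen after seeing the data. Other causes of these moves were not tested.

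AT-rich origins up were 33, 15, and 0 and down 1, 3, and 1 at 2-fold. Up were 2.35%, 0.904%, and 0% of AT-rich origins, against 1.69%, 1.41%, and 0.259% of all origins. In *ORC2Δ* the share up at 2-fold was thus below that of all origins. Down were 0.0711%, 0.181%, and 0.0680%, against 0.340%, 0.490%, and 0.0456%. AT-rich origins were 14, 18, and 2 up and 10, 7, and 6 down under 35% GC, and 767, 295, and 85 up and 99, 207, and 72 down under 45%. The shares up were 8.05%, 7.38%, and 1.09% under 35% and 12.3%, 4.76%, and 1.35% under 45%, against 7.00%, 4.62%, and 2.05% of all origins. The shares down were 5.75%, 2.87%, and 3.26% under 35% and 1.58%, 3.34%, and 1.14% under 45%, against 3.95%, 3.61%, and 0.682%. At widths of 500 bp or more they were 72, 36, and 7 up and 12, 14, and 12 down, and with at least 200 reads 43, 17, and 4 up and 4, 7, and 5 down. By presence in the lists AT-rich origins were 623, 871, and 697 up and 369, 247, and 268 down, with the shares of all origins given above. With the GC trend removed, 102 were up and 85 down in *ORC1Δ*, which is 7.25% and 6.04% against 4.72% and 2.84% of all origins. With no skew limit 38 were up in *ORC5Δ*, or 2.50% against 2.05% of all origins. The share above the flanks in GC content was 36.6% with 1-kb flanks in *ORC2Δ*, and 30.8%, 25.8%, and 28.1% with 50-kb flanks. With genes of any biotype, 61.3%, 59.98%, and 61.0% lay inside genes. TMM and median-of-ratios scaling shift all log2 folds of a table alike. They cannot change the differences between the medians of AT-rich and all origins, which are among the values counted above as kept. The counts could change, and with TMM scaling AT-rich origins were 214, 127, and 22 up and 30, 29, and 23 down. In *ORC2Δ* these were 7.66% up and 1.75% down, against 5.199% and 2.904% of all origins. At a median of 77 to 80 WT reads, counting error alone gave the log2 fold of 1 AT-rich origin a median half-width of 0.45 to 0.46.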
